A study of Mus musculus with 8 samples.

Results

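The genes described here encode effectors of pyroptosis, necroptosis and apoptosis: Zbp1, Ripk3, Mlkl, Casp1, Casp4, Pycard, Gsdmd, Casp8, Fas and Bak1. They were taken by gene name from the authors' deposited table of ARE-/- against WT hearts, which lists only genes that passed the authors' test. Of these 10 genes, 8 were listed among 4820 listed genes of 19606 tested, and Casp8 and Fas were not analysed here. The table holds bulk RNA sequencing of total RNA from whole hearts of male C57B6/J mice aged 20 to 25 weeks, 4 ARE-/- and 4 WT. The labels do not spell out ARE, taken here to mean the AU-rich element of Ifng, a stretch that makes the transcript of interferon gamma (IFN-γ) short-lived. The sources used here give no bounds for the deletion and name no treatment for either group. Libraries were counted as separate mice because the design text names 4 animals per genotype. In each group 3 libraries lay close together in many genes, in ARE-/- within 0.04 to 0.23 on the log2 scale for the genes described. In WT replicates 1, 2 and 4 the spread was wider for Casp1 (44.4, 32.3 and 61.7 scaled counts) and Zbp1 (28.8, 45.5 and 44.2) than for Pycard (209.0, 202.2 and 200.4). The counts do not settle whether the close libraries of a group are separate animals. If they were repeats of a single RNA, each SE and p given with n = 4 would be too small. All p-values except those of Gene Ontology terms measure the spread between these libraries.

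Pyroptosis, necroptosis and apoptosis are forms of programmed cell death that differ in their executioners. In necroptosis, the kinase RIPK3 phosphorylates MLKL, which then permeabilises the plasma membrane, and ZBP1 is a sensor of Z-form nucleic acid that can engage RIPK3. In pyroptosis, the adaptor ASC (gene Pycard) gathers caspase-1 into an inflammasome, and caspase-1, or the sensor of cytosolic lipopolysaccharide known in the mouse as caspase-11 (gene Casp4), cleaves gasdermin D into a pore-forming fragment. In mitochondrial apoptosis, BAK opens the outer mitochondrial membrane. Several of these genes are known to be inducible by interferons, and in the heart both immune cells and cardiomyocytes are known to die by these routes.

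The stretches just upstream of the annotated starts of Casp1, Casp4 and Mlkl are shown because these genes had the widest spread among ARE-/- hearts. They come from RefSeq promoter windows on GRCm38.p6, the assembly also called mm10. They are written 5′ to 3′ on the strand of the gene, and capitals mark GAAA or its complement TTTC, the 4 letters that recur in the interferon-stimulated response element.
Casp1: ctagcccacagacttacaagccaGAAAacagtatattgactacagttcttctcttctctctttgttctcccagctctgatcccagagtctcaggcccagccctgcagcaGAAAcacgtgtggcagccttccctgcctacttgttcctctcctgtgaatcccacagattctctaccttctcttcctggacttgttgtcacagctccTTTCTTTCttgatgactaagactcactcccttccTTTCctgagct
Casp4: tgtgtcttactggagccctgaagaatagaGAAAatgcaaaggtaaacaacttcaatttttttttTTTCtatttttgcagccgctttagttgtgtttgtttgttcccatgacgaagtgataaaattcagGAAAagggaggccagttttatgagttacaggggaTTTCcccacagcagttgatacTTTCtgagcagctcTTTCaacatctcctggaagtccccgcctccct
Mlkl: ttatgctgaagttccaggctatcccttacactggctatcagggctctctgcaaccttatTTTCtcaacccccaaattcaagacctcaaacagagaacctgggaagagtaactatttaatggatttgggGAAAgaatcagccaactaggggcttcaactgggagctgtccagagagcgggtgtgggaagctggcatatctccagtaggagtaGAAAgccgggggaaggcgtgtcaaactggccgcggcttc
The Casp1 stretch lies at chr9:5298267-5298516 on the forward strand and holds 5 such tetramers. That of Casp4, at chr9:5308599-5308827 on the same strand, ends where its first annotated exon begins and holds 6. The Mlkl stretch lies at chr8:111338206-111338455 on the reverse strand and holds 3. Over all windows, the 250 upstream bases held at least 1 tetramer in 86.4% of cases and a median of 2, with at least 5 in 16.8% and at least 6 in 8.75%. Windows were found for 6 of the 8 genes (all but Zbp1 and Gsdmd), with 2 for Casp4, and none of these 7 held the core of the response element (GAAA, any 2 bases and GAAA) or TTCNNNGAA, the GAS motif. Read on both strands of all windows, these letters occur in 3.44% and 8.30% of them. The search covers these windows alone.

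Library totals ran from 13416171 to 19432098 reads in ARE-/- and from 14321679 to 17129012 reads in WT. These totals are those implied by the deposited counts, FPKM and gene lengths, and which reads they include is not stated. ARE-/- replicate 1 and WT replicate 3 stood apart from the other libraries of their group in many genes. Values without both are given beside the 8 genes, their ratios, the immune marker sums and some of the pathway genes. The tissue label was met by abundant cardiomyocyte transcripts: 8 listed of 12 ventricular cardiomyocyte markers summed to 353605 to 533840 normalised counts in ARE-/- hearts and to 688792 to 975031 in WT hearts, and all 8 fell. In the authors' test 24.6% of the tested genes were called, and 12.8% of the tested genes rose. Among listed genes 52.1% rose, 25.9% rose at least 2-fold by the authors' log2 fold change, and in 40.9% every ARE-/- library exceeded every WT library. All 8 cell death genes rose, all 8 at least 2-fold, and all 8 without overlap between groups. Listing was part of how they were found, so nothing is read from the number called.

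Among the necroptosis genes, Zbp1 was nearly silent in WT hearts and among the more abundant of the 8 genes in ARE-/- hearts, while Ripk3 and Mlkl rose by a few fold. Normalised counts here are read counts divided by the authors' size factor for each library, and differences are the ARE-/- mean of log2(normalised count + 0.5) minus the WT mean. Zbp1 (ENSMUSG00000027514, chr2:173206612-173218923, reverse strand) had 1797, 2023, 1877 and 1868 normalised counts in ARE-/- replicates 1 to 4, against 28.8, 45.5, 40.7 and 44.2 in WT replicates 1 to 4. The lowest ARE-/- heart was 39.5 times the highest WT heart, and the ARE-/- hearts were close together, with a coefficient of variation of 5.02%. The log2 difference was 5.57 ± 0.15 (SE, n = 4 each), a ratio of means of 47.5. The authors' deposited table gives an adjusted p of 3.17e-201 (DESeq2).

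Ripk3, the kinase downstream of ZBP1 (ENSMUSG00000022221, chr14:55784996-55788857, reverse strand), was the least abundant of the 8 genes by normalised count in ARE-/- hearts. It had 144.7, 101.8, 99.2 and 107.4 normalised counts in ARE-/- hearts, against 37.2, 39.5, 57.1 and 31.9 in WT hearts. The highest values were those of ARE-/- replicate 1 and WT replicate 3, and the groups did not overlap. The log2 difference was 1.46 ± 0.22 (SE), on raw counts as low as 31 reads in WT. The call was lost in an edgeR refit with offsets that remove the trend with transcript GC content, where the difference was 0.84 (adjusted p = 0.0572). In that refit 27.8% of the listed genes with a GC value rose. Its median over listed genes was -0.10, against 0.45 in the refit without offsets.

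Mlkl, the executioner of necroptosis (ENSMUSG00000012519, chr8:111311797-111338177, reverse strand), had 314.8, 149.9, 148.4 and 145.8 normalised counts in ARE-/- hearts, against 43.2, 61.0, 61.0 and 48.3 in WT hearts. More was counted in ARE-/- replicate 1 than in the other ARE-/- hearts, which lay within a few counts of one another and above every WT heart. The log2 difference was 1.75 ± 0.30 (SE, n = 4 each) and 1.48 without that library. Adjusted p-values were 1.82e-06 for Ripk3 and 1.94e-07 for Mlkl in the authors' deposited table (DESeq2).

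All 4 pyroptosis genes rose, Casp1 by far the most. Casp1 (ENSMUSG00000025888, chr9:5298517-5307265, forward strand), the protease that matures interleukin-1β and interleukin-18, had 1479, 747.5, 807.8 and 721.1 normalised counts in ARE-/- hearts, against 44.4, 32.3, 111.3 and 61.7 in WT hearts. ARE-/- replicate 1 and WT replicate 3 were each the highest of their group, and even so the groups were far apart. The ratio of means was 15 and the log2 difference 3.99 ± 0.45 (SE, n = 4 each). It was 4.07 ± 0.27 without both of those libraries.

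Casp4 lies next to Casp1 on chromosome 9 (ENSMUSG00000033538, chr9:5308828-5336783, forward strand) and encodes caspase-11. It had 609.1, 216.0, 213.4 and 240.4 normalised counts in ARE-/- hearts, against 88.9, 77.8, 130.7 and 82.2 in WT hearts. ARE-/- replicate 1 was 2.73 times the mean of the other ARE-/- hearts, the widest such gap among the 8 genes, and the groups did not overlap. The log2 difference was 1.62 ± 0.40 (SE) over all libraries and 1.42 ± 0.078 without ARE-/- replicate 1 and WT replicate 3.

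Pycard, the gene of the adaptor ASC (ENSMUSG00000030793, chr7:127992103-127993867, reverse strand), had 859.3, 615.4, 526.0 and 550.4 normalised counts in ARE-/- hearts, against 209.0, 202.2, 220.7 and 200.4 in WT hearts. Gsdmd, which encodes the pore-forming gasdermin D (ENSMUSG00000022575, chr15:75862339-75867404, forward strand), had 555.1, 407.3, 381.1 and 419.0 in ARE-/- hearts, against 151.3, 168.7, 177.2 and 169.6 in WT hearts. In both genes WT hearts were tightly grouped, ARE-/- replicate 1 was the highest, and no ARE-/- heart came near the WT range. Log2 differences were 1.59 ± 0.16 for Pycard and 1.39 ± 0.13 for Gsdmd (SE, n = 4 each). Exons of Gm45205 overlap Pycard on the opposite strand, and no source used here says whether strand was counted, so reads of that pair cannot be told apart. In the authors' deposited table, adjusted p-values were 6.4e-24 for Casp1, 3.1e-05 for Casp4, 2.8e-14 for Pycard and 5.4e-13 for Gsdmd (DESeq2). With GC offsets the difference of Gsdmd was 0.78 (edgeR adjusted p = 0.0167).

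Bak1, the apoptosis effector of the mitochondrial outer membrane (ENSMUSG00000057789, chr17:27019810-27029009, reverse strand), rose with another order of hearts. It had 266.5, 382.7, 399.5 and 343.7 normalised counts in ARE-/- hearts, against 118.9, 93.3, 82.3 and 118.2 in WT hearts. The lowest ARE-/- heart was replicate 1, at 0.710 times the mean of the others, and still exceeded every WT heart. The log2 difference was 1.75 ± 0.18 (SE, n = 4 each), with an adjusted p of 1.7e-14 in the authors' deposited table (DESeq2), and it was 0.99 with GC offsets. Exons of Ggnbp1 overlap Bak1 on the opposite strand. Ggnbp1 was lower in ARE-/- hearts, at 88.9 ± 19.1 normalised counts, against 242 ± 50.04 in WT hearts (SD, n = 4 each), and how reads of the overlap were shared was not tested.

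**Figure D1:**
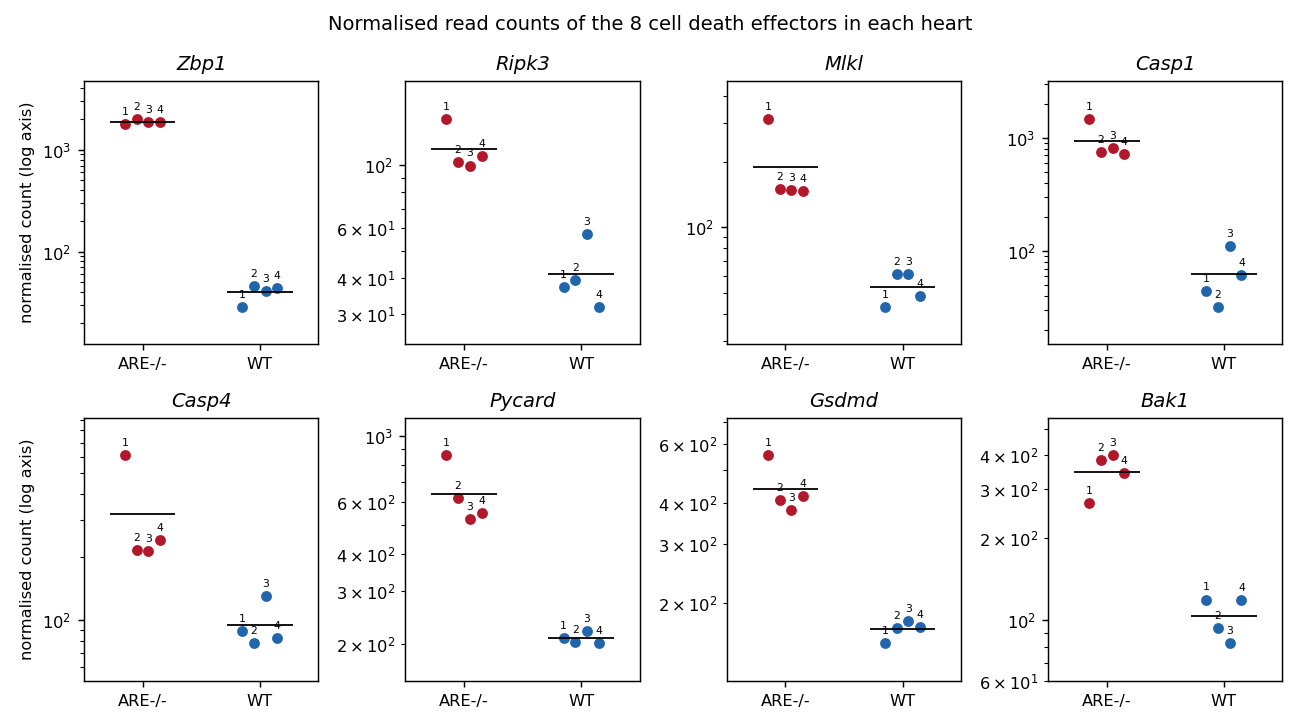
Normalised counts (log axes, a separate scale in each panel) of the 8 cell death genes in each heart, with ARE-/- in red on the left and WT in blue on the right. Numbers beside points are replicate numbers and black lines are group means. In every panel the lowest ARE-/- point lies above the highest WT point, and ARE-/- replicate 1 sits above its group for Mlkl, Casp1 and Casp4 and below it for Bak1.

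Over single values, each of the 8 genes had an exact two-sided permutation p of 0.0286, the smallest that 4 against 4 hearts can give. Any gene without overlap between groups has this p, as in the 40.9% of listed genes with every ARE-/- library above every WT library. The 8 genes were listed for a call on these same libraries, so this p adds no support. Summing the 3 libraries of each group that lay close together to 1 replicate, a refit that leaves 2 values per group, kept the calls of Zbp1 (edgeR adjusted p = 0.00211) and Casp1 (edgeR adjusted p = 0.0164). The other 6 lost their call there, with adjusted p-values between 0.0533 for Pycard and 0.210 for Ripk3, and 5.66% of the listed genes rose past the threshold in that refit.

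**Figure D2:**
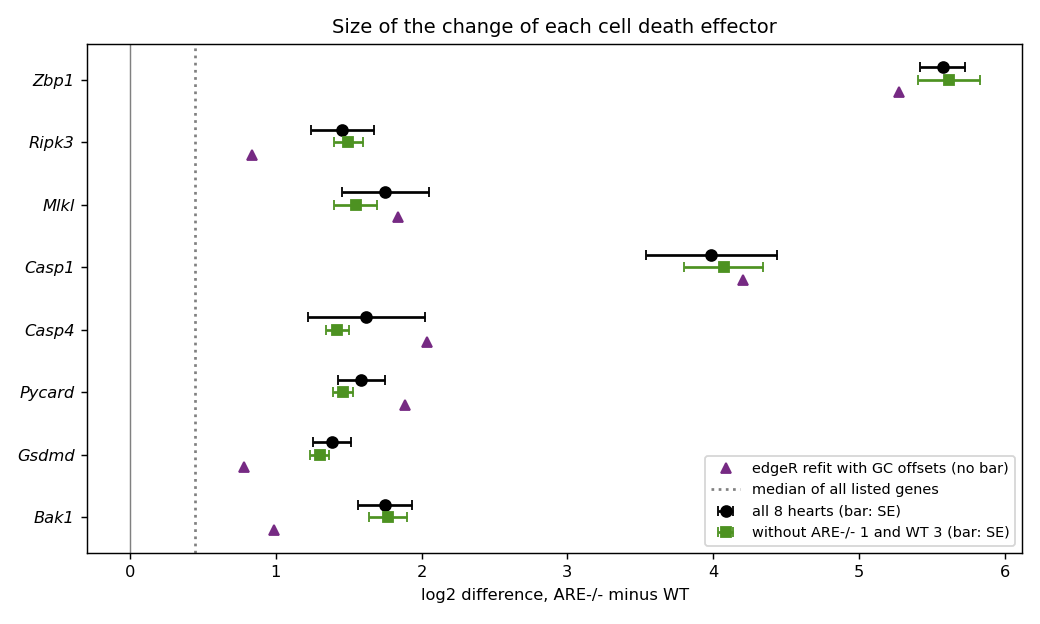
Log2 differences, ARE-/- minus WT, of the 8 genes with their SE over 4 and 4 hearts, the values without ARE-/- replicate 1 and WT replicate 3 (green squares, SE), and edgeR values with GC offsets (purple triangles, no bar). The dotted line is the median of all listed genes, 0.44, and that of the risen listed genes, 1.01, is not drawn. Zbp1 at 5.57 and Casp1 at 3.99 lie apart from the other 6 genes, which span 1.39 to 1.75, and the triangles of Ripk3, Gsdmd and Bak1 lie below 1.

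The unequal size of the changes was compared within libraries, where the size factor cancels. The log2 ratio of Zbp1 to Mlkl counts was 2.51, 3.75, 3.66 and 3.67 in ARE-/- hearts, against -0.58, -0.42, -0.58 and -0.13 in WT hearts. Every ARE-/- heart had a higher ratio than every WT heart, with replicate 1 the lowest of the ARE-/- hearts. The difference between genotypes was 3.82 ± 0.31 (SE, exact two-sided permutation p = 0.0286, the same after Benjamini-Hochberg adjustment over 3 ratios). That is the smallest p of 4 against 4 hearts, and the 3 pairs were chosen with earlier results of these data known. For all 3 ratios this p therefore adds no support, and the size of each difference is what is described. These ratios are of counts, not of levels per length, and only their difference between genotypes is compared.

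Casp4 rose less than its neighbour Casp1. The log2 ratio of Casp4 to Casp1 counts was -1.28, -1.79, -1.92 and -1.58 in ARE-/- hearts, against 0.99, 1.25, 0.23 and 0.41 in WT hearts. Every ARE-/- heart had a lower ratio than every WT heart. The difference was -2.36 ± 0.28 (SE), at the same exact permutation p. Casp1 also rose more than its adaptor Pycard, with a log2 ratio of 0.52 ± 0.23 in ARE-/- hearts and -1.88 ± 0.71 in WT hearts (SD, n = 4 each). That difference was 2.40 ± 0.37 (SE), again at the smallest exact permutation p. WT replicate 3, with the most Casp1 reads of its group, had the ratio nearest to the ARE-/- hearts, -0.98. Without ARE-/- replicate 1 and WT replicate 3 the 3 differences were 4.07 for Zbp1 to Mlkl, -2.65 for Casp4 to Casp1 and 2.61 for Casp1 to Pycard, where an exact permutation p cannot go below 0.1.

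Per unit of gene length, on the FPKM scale deposited by the authors, the order of the 8 genes differed between genotypes. In ARE-/- hearts mean levels ran from Casp1 (43.9 ± 22.2 FPKM) and Zbp1 (38.7 ± 3.18) through Pycard (31.5 ± 11.1), Gsdmd (17.1 ± 4.91), Casp4 (12 ± 8.71) and Bak1 (9.82 ± 0.990) down to Mlkl (6.66 ± 3.74) and Ripk3 (3.98 ± 1.19). In WT hearts Pycard (8.76 ± 0.511 FPKM) and Gsdmd (5.55 ± 0.463) were highest, followed by Casp4 (2.96 ± 0.807), Bak1 (2.56 ± 0.463), Casp1 (2.49 ± 1.43), Mlkl (1.58 ± 0.266), Ripk3 (1.25 ± 0.344) and Zbp1 (0.708 ± 0.139, SD, n = 4 each). Zbp1 was thus the lowest of the 8 in WT hearts and next to the highest in ARE-/- hearts.

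Not all steps in this order exceeded the spread between hearts. The ranges of every pair of neighbours overlapped in ARE-/- hearts. Casp1 exceeded Zbp1 there only in replicate 1, with 77.1, 33.3, 34.3 and 30.9 FPKM against 42.2, 40.5, 35.8 and 36.1, and Casp4 exceeded Bak1 only in 1 heart of 4. Pycard was above Gsdmd, and Mlkl above Ripk3, in 4 of 4 ARE-/- hearts. In WT hearts the ranges of Pycard and Gsdmd, of Gsdmd and Casp4, and of Ripk3 and Zbp1 did not overlap, whereas those of the other neighbours did. Casp4 and Bak1 lay above Mlkl without overlap in WT hearts, and Casp1 overlapped all 3. Mlkl was above Ripk3 in 4 of 4 WT hearts, with overlapping ranges.

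**Figure D3:**
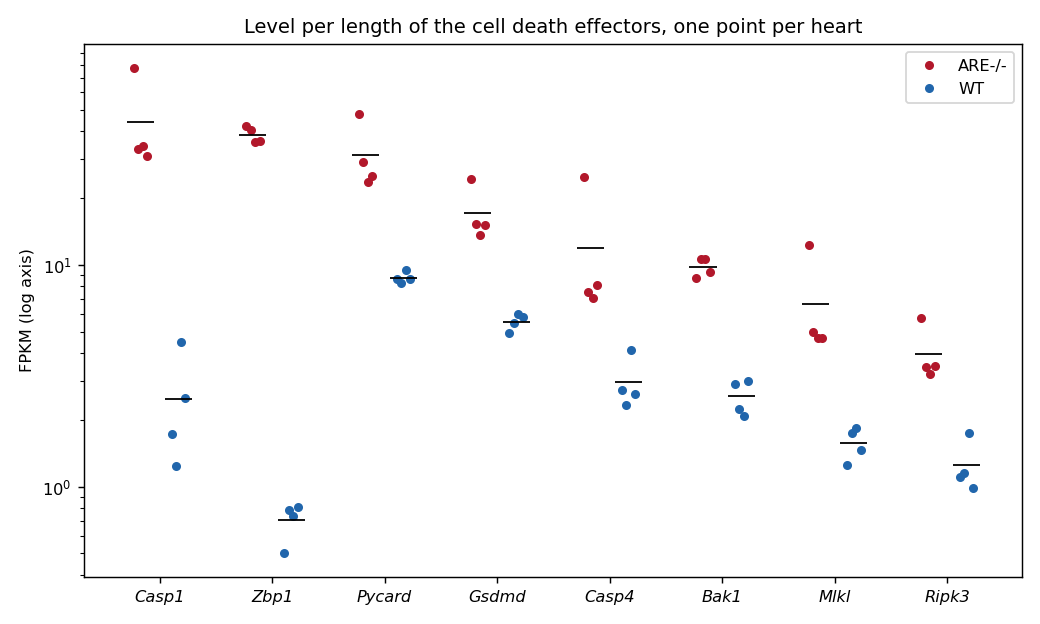
Deposited FPKM (log axis) of the 8 genes in each heart, ARE-/- in red and WT in blue, with lines at group means. Casp1 and Zbp1 are the highest genes in ARE-/- hearts, at 43.9 and 38.7 FPKM on average, and Pycard is the highest in WT hearts, at 8.76 FPKM.

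The 8 genes differed in how they varied among hearts of a genotype. ARE-/- replicate 1 lay above the mean log2 of the other ARE-/- hearts by 1.45 for Casp4, 1.09 for Mlkl, 0.96 for Casp1, 0.61 for Pycard, 0.49 for Ripk3 and 0.46 for Gsdmd. Zbp1 was at -0.096 and Bak1 at -0.49. Among 4323 listed genes with a mean of at least 10 normalised counts this gap had a median of 0.027, with quartiles of -0.45 and 0.56 and a 95th percentile of 1.43. Only Casp4 lay above that percentile, and Zbp1, Ripk3 and Gsdmd lay inside the quartiles.

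WT replicate 3 departed from its group in part of the same genes. It exceeded the mean log2 of the other WT hearts by 1.31 for Casp1, 0.66 for Ripk3, 0.65 for Casp4, 0.27 for Mlkl, 0.12 for Gsdmd, 0.11 for Pycard and 0.07 for Zbp1, and Bak1 was at -0.41. The quartiles over listed genes were -0.20 and 0.33, and the 95th percentile was 0.96, which Casp1 exceeded. Without ARE-/- replicate 1 and WT replicate 3, differences were 5.62 ± 0.21 for Zbp1, 1.498 ± 0.097 for Ripk3, 1.55 ± 0.15 for Mlkl, 1.46 ± 0.070 for Pycard, 1.30 ± 0.067 for Gsdmd and 1.77 ± 0.13 for Bak1 (SE, n = 3 each). All 8 differences thus stayed positive and above 1 on the log2 scale.

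Markers of immune cells moved with these genes, and in bulk tissue more cells of a type and more RNA per cell cannot be told apart. Of 21 macrophage and monocyte markers 16 were listed, 15 risen and 1, Cd163, fallen. Their summed normalised counts were 46149 to 66045 in ARE-/- hearts and 8383 to 13468 in WT hearts. Of 22 T cell and NK cell markers 18 were listed and all 18 rose, with sums of 2791 to 3832 in ARE-/- hearts and 433 to 870 in WT hearts. The highest sum of both lists was that of ARE-/- replicate 1 within ARE-/- and of WT replicate 3 within WT, the hearts in which Casp1, Casp4, Ripk3, Pycard and Gsdmd were also highest. Without both, the macrophage sums were 46149 to 48069 in ARE-/- hearts and 8383 to 8833 in WT hearts, and the T cell and NK cell sums 2791 to 2929 in ARE-/- hearts and 433 to 673 in WT hearts. No listed marker of either list was at 0 in any heart. The lowest cardiomyocyte sums of each genotype were those of the same 2 libraries. Single immune markers did not all follow the sums. Median gaps of ARE-/- replicate 1 to the other ARE-/- hearts were 0.60 for macrophage and 0.59 for T and NK cell markers. Gaps were negative for Gzmb (-1.38), Prf1 (-0.91), Klrb1c (-0.85) and Il2rb (-0.74), and near 0 for Csf1r and C1qa. T and NK cell markers lay a median of 2.28 above the WT mean in replicate 1, against 2.29, 2.27 and 2.20 in replicates 2 to 4. The part of these cell types in the rises of the 8 genes was not tested.

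Markers of other cells moved less uniformly. All 5 listed of 11 neutrophil markers fell, with sums of 19.2 to 43.3 normalised counts in ARE-/- hearts and 115 to 221 in WT hearts, and Mpo was at 0 in every ARE-/- heart. Of 9 dendritic cell markers 5 were listed, 4 of them risen, and of 8 fibroblast markers 3 were listed and all 3 rose. Of 9 endothelial markers 3 were listed, 1 risen and 2 fallen, and of 8 B cell and plasma cell markers 2 were listed, 1 in each direction.

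**Figure D4:**
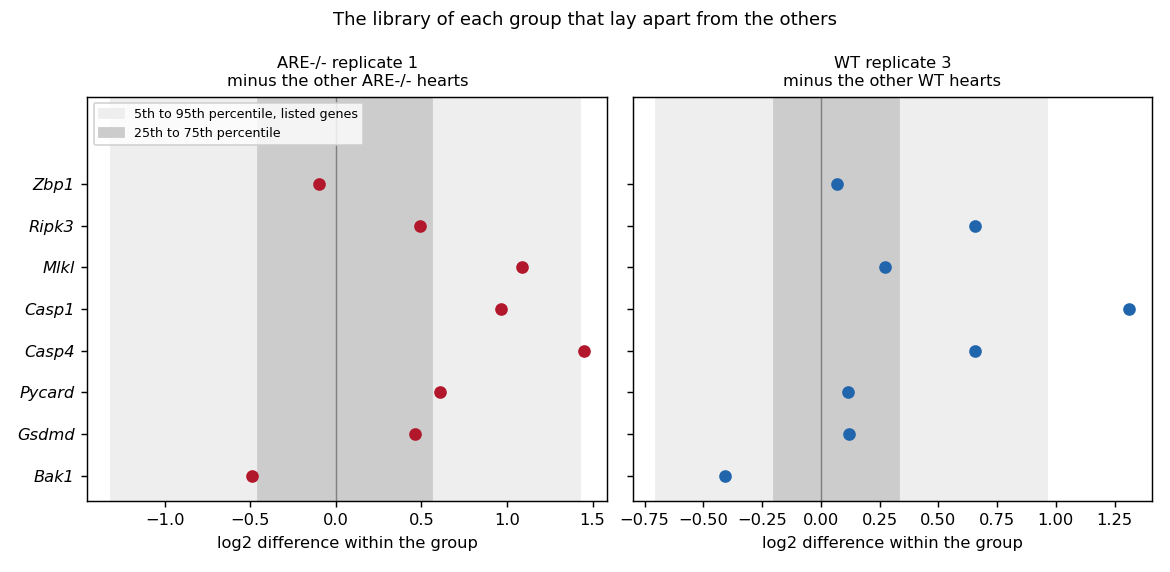
Log2 gap of ARE-/- replicate 1 to the mean of the other ARE-/- hearts, and of WT replicate 3 to the other WT hearts, for each of the 8 genes. Grey bands span percentiles 5 to 95 and 25 to 75 of the listed genes with a mean of at least 10 normalised counts. Casp4 at 1.45 lies above the outer band for ARE-/- replicate 1 and Casp1 at 1.31 above that for WT replicate 3, while Zbp1 lies near 0 in both.

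Transcript GC content is given because removing the trend with it moved several values. It was 38.1% for Casp4, 41.1% for Casp1, 45.6% for Pycard, 48.6% for Mlkl, 51.0% for Zbp1, 54.2% for Ripk3, 54.4% for Gsdmd and 57.1% for Bak1, against quartiles of 45.3% and 54.5% over the listed genes. With GC offsets in edgeR the log2 differences were 2.03 for Casp4, 4.20 for Casp1, 1.89 for Pycard, 1.84 for Mlkl and 5.27 for Zbp1. All 8 kept their direction, and Ripk3 alone of the 8 lost its call.

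Other inflammasome and pyroptosis genes rose alongside the 4 described. Of a list of 32 such genes, 14 were listed and all 14 rose, and 12 of them rose at least 2-fold. Their median log2 difference was 2.41, against 0.44 over all listed genes and 1.01 over the risen listed genes. In 12 of the 14 no ARE-/- heart overlapped the WT hearts, and 12 rose with GC offsets. Over all listed genes 25.9% rose at least 2-fold and 40.9% had every ARE-/- heart above every WT heart. Of those with a GC value, 27.8% rose with GC offsets. These shares also apply to the 3 lists below. Gm12250, the interferon-inducible GTPase also called Irgb10, which exposes bacterial ligands to inflammasome sensors, averaged 2497 ± 71.0 normalised counts in ARE-/- hearts and 17.2 ± 9.94 in WT hearts (SD, n = 4 each), and it rose by 7.30 ± 0.38 on the log2 scale (SE). The guanylate-binding proteins Gbp5 and Gbp2, which also act on bacteria in the cytosol, rose by 4.13 ± 0.19 and 3.62 ± 0.38, and by 3.88 and 3.39 without ARE-/- replicate 1 and WT replicate 3. Casp12, a relative of caspase-1 and caspase-11, rose by 3.06 ± 0.27.

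The list also held products and brakes of the pathway. Il18bp, which encodes a secreted antagonist of interleukin-18, rose by 2.37 ± 0.20, and Il18 itself by 1.65 ± 0.38. For the 5 genes named by the rule, adjusted p-values in the authors' deposited table ran from 1.28e-151 for Gm12250 to 8.98e-24 for Il18bp (DESeq2). The median gap of ARE-/- replicate 1 to its group over the 14 genes was 0.86. With the close libraries summed, 6 genes of the list rose past the threshold of edgeR.

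Most listed genes upstream of and around RIPK3 rose. Of 29 necroptosis genes 17 were listed, 15 risen and 2 fallen, and 8 rose at least 2-fold. The median of all 17 was 0.86, against 0.44 over all listed genes and 1.01 over the risen listed genes. In 13 of them every ARE-/- heart was above every WT heart, as in 40.9% of all listed genes, and in 2 every ARE-/- heart was below. Tnfrsf1b and Tnfrsf1a, the receptors of tumour necrosis factor, rose by 1.89 ± 0.17 and 1.15 ± 0.15, and their adaptor Tradd by 1.05 ± 0.19. Adar, the editing enzyme known to restrain ZBP1 by removing its RNA ligands, rose by 1.32 ± 0.16. Rnf31, the catalytic subunit of the linear ubiquitin ligase, rose by 1.96 ± 0.51, with 313.1 normalised counts in ARE-/- replicate 1 and 1198 to 1261 in the other ARE-/- hearts, against a WT mean of 227, and its difference was 2.53 without ARE-/- replicate 1 and WT replicate 3. The fallen genes were Aifm1, a mitochondrial flavoprotein (-0.62 ± 0.056), and Camk2d, a calcium-dependent kinase of cardiomyocytes that RIPK3 is known to activate (-0.69 ± 0.12). Adjusted p-values of these 7 genes in the authors' deposited table ran from 2.06e-19 to 1.86e-04 (DESeq2). In edgeR refits the count of risen genes was 8 without ARE-/- replicate 4 and 9 without ARE-/- replicate 2 or WT replicate 1, 2 or 3, and 9 genes rose with GC offsets. Those offsets ended the call of Tradd (0.28, edgeR adjusted p = 0.684) and brought Tnfrsf1a to 0.42, Adar to 0.74, Camk2d to -0.34 and Aifm1 to -0.40.

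Genes of death receptor apoptosis mostly rose, among them inhibitors as well as activators. Of 25 genes 14 were listed, 13 risen and 1 fallen, with a median of 1.51, and 9 of them rose at least 2-fold. Serpina3g, an inhibitor of cysteine proteases, averaged 1933 ± 826 normalised counts in ARE-/- hearts and 41.6 ± 21.3 in WT hearts (SD, n = 4 each), a difference of 5.56 ± 0.42 (SE). Serpinb9, which inhibits granzyme B, rose by 1.90 ± 0.22. Bid, which carries death receptor signals to BAK, rose by 2.19 ± 0.34, the ligand gene Tnfsf10 (TRAIL) by 1.57 ± 0.27 and the receptor gene Tnfrsf12a by 1.08 ± 0.13. The fallen gene was Faim2, an inhibitor of Fas signalling, low in both groups at 6.14 ± 4.29 normalised counts in ARE-/- hearts and 19.3 ± 6.22 in WT hearts. In 12 risen genes and in Faim2 the groups did not overlap. With GC offsets 9 genes rose and 1 fell, and Tnfrsf12a lost its call (0.33, edgeR adjusted p = 0.609). Without ARE-/- replicate 1 and WT replicate 3 the difference of Serpina3g was 5.598. Adjusted p-values of these 6 named genes in the authors' deposited table ran from 7.30e-51 for Serpina3g to 0.022 for Faim2 (DESeq2). Gzmb and Prf1 on this list are also T cell and NK cell markers.

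The mitochondrial apoptosis list was the most mixed. Of 35 genes 16 were listed, 12 risen and 4 fallen, and 6 rose at least 2-fold. The median of all 16 was 0.89, against 0.44 over all listed genes and 1.01 over the risen listed genes. Xaf1, an antagonist of the caspase inhibitor XIAP, rose by 2.55 ± 0.25, Bcl2l14, a BCL2 relative, by 4.04 ± 0.72 and Trp53, the gene of p53, by 0.97 ± 0.11. Bcl2a1d and Bcl2a1a, which encode antiapoptotic relatives of BCL2, rose by 3.97 ± 0.41 and 4.27 ± 0.68, and as near-identical copies they may share reads, so both values are uncertain. The fallen genes were Vdac2, an outer membrane channel that binds BAK (-0.38 ± 0.058), Hrk, a proapoptotic gene read in a single ARE-/- heart, Mdm2, the inhibitor of p53 (-0.70 ± 0.23), and the mitophagy receptor Bnip3l (-1.10 ± 0.42). The groups overlapped for Mdm2 and Bnip3l. With GC offsets 7 genes rose and 1, Hrk, fell. The calls of Vdac2 (-0.21), Mdm2 (-0.41) and Bnip3l (-0.66) were lost there, with edgeR adjusted p-values of 0.259, 0.152 and 0.164, and Trp53 stood at 0.41. Without ARE-/- replicate 1 and WT replicate 3 the differences were -1.36 for Bnip3l and -0.96 for Mdm2. The 9 genes had adjusted p-values in the authors' deposited table from 6.29e-23 for Xaf1 to 0.0395 for Bnip3l (DESeq2). Bax, the partner of BAK at the same membrane, rose by 0.80 ± 0.097, a call lost with GC offsets (0.0016, edgeR adjusted p = 1).

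**Figure D5:**
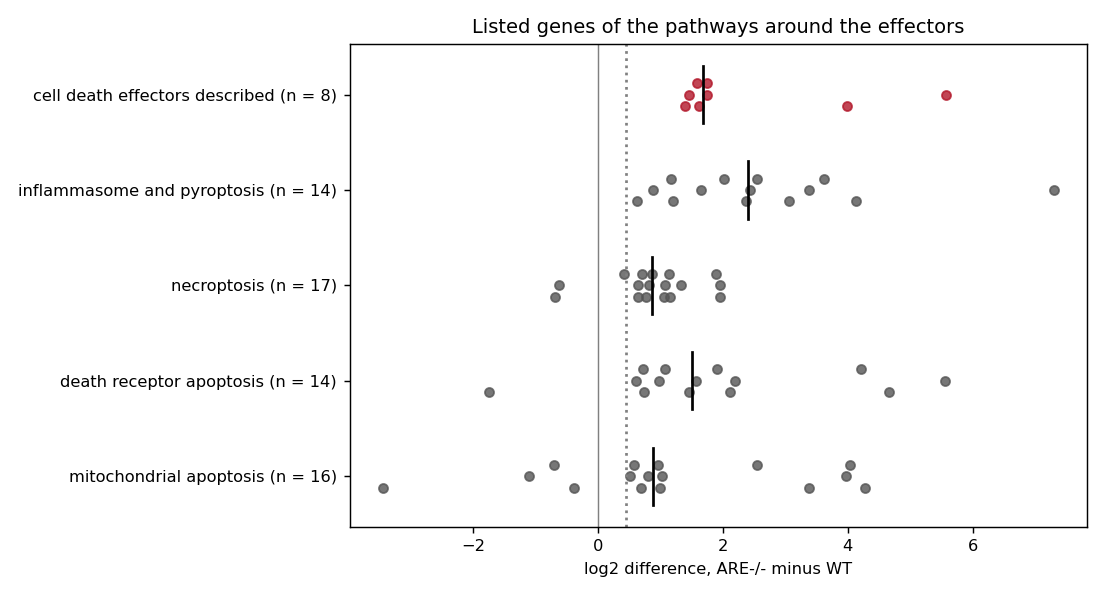
Log2 differences, ARE-/- minus WT, of the 8 cell death genes (red) and of the listed genes of the 4 pathway lists (grey), each point a gene, with a black tick at the median of each row. The dotted line is the median of all listed genes, 0.44, and that of the risen listed genes, 1.01, is not drawn. List medians are 2.41 for inflammasome and pyroptosis, 0.86 for necroptosis, 1.51 for death receptor apoptosis and 0.89 for mitochondrial apoptosis.

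The listed genes with patterns most like those of the 8 were sought by the root mean square difference of log2 values over the 8 hearts, each gene centred on its WT mean, among 4322 candidates. Nearest to Zbp1 were Tgtp2 (0.28), H2-DMb1 (0.31) and Gbp6 (0.43). Casp1 had Ifi47 (0.34), Ccl12 (0.37) and Bcl2a1d (0.39), and its distances were among the widest of the 8. Nearest to Mlkl were Trim30a (0.16), Tnfsf10 (0.17) and Vcam1 (0.17). Ripk3 was matched more closely, by Limd2 (0.089), C1ra (0.093) and Tmem176a (0.10). The leukocyte gene Lcp1 (0.099) was nearest to Casp4, ahead of Hmmr (0.15) and the T cell receptor gene Trbc2 (0.15). Pycard had Pirb (0.11), Meox1 (0.14) and Cd300a (0.16), and Gsdmd had Tgfbi (0.067), Pafah1b3 (0.093) and Ctsz (0.11). Bak1 was nearest to Rhog (0.16), Cx3cl1 (0.17) and Siglec1 (0.18).

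Ifng had 103, 37, 27 and 61 reads in ARE-/- hearts, against 0, 3, 0 and 1 reads in WT hearts. It was highest in ARE-/- replicate 1, as were Casp1, Casp4, Mlkl, Ripk3, Pycard and Gsdmd. Zbp1 and Bak1 were instead lowest of the ARE-/- hearts in that library, at 1797 and 266.5 normalised counts, and Irf1 had a gap of -0.21 there. The interferon response factor Irf1 (2.75 ± 0.12) rose by more on the log2 scale than 6 of the 8 cell death genes and by less than Zbp1 and Casp1.

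A deposited table of Gene Ontology terms by the authors places these genes unevenly. Of 2065 terms in it, 71 name cell death, apoptosis, pyroptosis, necroptosis, inflammasomes or interleukin-1, and 43 of these hold at least 1 of the 8 genes. Pycard is in 29 of them, Casp1 in 18, Casp4 in 16, Bak1 in 15, Ripk3 and Gsdmd in 14 each and Mlkl in 3. Zbp1, the gene with the highest rise, is in none of the 71, although it is in 15 terms in all. In the authors' deposited table, pyroptosis held 7 genes (adjusted p = 0.0234), among them Casp1, Casp4 and Gsdmd. The inflammasome complex held 9 (adjusted p = 0.00462), with Pycard in addition. The necroptotic process held 12 (adjusted p = 0.024), among them Ripk3 and Mlkl. The intrinsic apoptotic signaling pathway held 95 (adjusted p = 3.05e-05), with Ripk3, Casp4, Pycard and Bak1.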

How the data were processed

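Total RNA of hearts was sequenced in pairs, per the labels' protocols. Groups came from the library titles. The submitters' processing notes name STAR, DESeq2 and mm10, without versions, and no source used here gives the read counter, whether it used strand, or the annotation. In the deposited gene table there are whole read counts and FPKM per library, the authors' log2 fold changes and p-values, and a normalised signal per group, in which the authors averaged counts over size factors. Each library's size factor was solved from those means. A second deposited table holds the authors' p-values of Gene Ontology terms, whose tool is not given.

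Only genes that passed the authors' adjusted p threshold of 0.05 are in the table, 4820 of the 19606 that their adjustment implies. Their calls were therefore taken as the result, and refits with edgeR 4.0.16 (quasi-likelihood, limma 3.58.1, R 4.3.3) or DESeq2 1.42.0 on the listed counts served as alternatives, with p-values adjusted as if 19606 genes had been tested and after a check on simulated data. Log2 differences used an offset of 0.5, which draws low genes towards 0. Alternatives were trimmed mean scaling (TMM), library totals, a mean of at least 10, a replicate block, each library left out in turn, ARE-/- replicate 1 and WT replicate 3 left out, the close libraries of each group summed, offsets for the GC content of GENCODE transcripts, an adjusted p under 0.01, a 2-fold minimum, and other log offsets (1 and 5). GC offsets were estimated on the selected genes and can also remove real differences.

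The 8 genes, the lists and the tests were chosen with earlier results of these data known. The text names all 8, up to 5 risen and 5 fallen genes of each pathway list by adjusted p, the 3 nearest patterns of each gene, and Ifng and Irf1; an item that the rule also names is not reported here. Il18, Bax, Ggnbp1, Gzmb, Prf1 and the markers named singly were chosen after their values were seen. Depth limits Zbp1, Ripk3, Mlkl and Casp1 most in WT hearts, where libraries held 24 to 115 reads of each.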

Additional observations from a re-analysis of the deposited data

Results flagged for a closer look

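Single hearts stood apart from the other 3 of their group in 17 of 76 groups of 4 values examined, those of the 8 genes, of 27 named pathway genes and of the 3 ratios. The gap to the nearest heart was divided by the range of the group, and values above Dixon's critical value are given, which chance passes in about 1 group in 20. Of the 17, 14 were in ARE-/- and 3 in WT. In 11 of them ARE-/- replicate 1 was above its group and in 3 WT replicate 3 was, and genes of 1 library are not independent.

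Among the cell death genes, the value was 0.976 for Mlkl, 0.932 for Casp4 and 0.886 for Casp1, all with ARE-/- replicate 1 above the others. The log2 ratio of Zbp1 to Mlkl was lowest in the same library, with a value of 0.925.

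Among pathway genes, ARE-/- replicate 1 was above the others for Gbp2 (0.997, with 8433 normalised counts against 3089 to 3103 in the other ARE-/- hearts), Bnip3l (0.940), Gbp5 (0.923), Bcl2a1d (0.909), Serpina3g (0.905), Bcl2l14 (0.875), Mdm2 (0.868) and Casp12 (0.835). It was below the others for Rnf31 (0.934). Hrk was read only in ARE-/- replicate 4, at 0.801 normalised counts. With the other ARE-/- hearts at 0 its value of 1.000 was fixed whatever the count, so nothing is read from it. WT replicate 3 was above the other WT hearts for Gbp2 (0.905), Il18bp (0.877) and Bnip3l (0.872). The cause of these gaps was not tested.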

How the results depend on the processing

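Each of the 8 genes was recomputed under 19 alternatives, and no direction reversed. The log offsets of 1 and 5 among them change the difference only and give no call. Zbp1 (5.27 to 5.76 on the log2 scale) and Casp1 (3.57 to 4.34) kept their call under every refit. Mlkl (1.47 to 2.07), Casp4 (1.23 to 2.03), Pycard (1.44 to 1.89), Gsdmd (0.78 to 1.62) and Bak1 (0.99 to 1.94) lost it only with the close libraries summed, and Ripk3 (0.84 to 1.67) there and with GC offsets. Summing left 2 of the 8 genes called, and 6 inflammasome, 1 necroptosis, 2 death receptor and 3 mitochondrial apoptosis genes risen. It leaves 2 values per group, which lowers what the test can detect.

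The 15 risen necroptosis genes were 8 with TMM, 9 with GC offsets, 9 at an adjusted p under 0.01, 8 at a 2-fold minimum, and 8 to 12 with 1 library left out. The 12 risen mitochondrial apoptosis genes were 7 with GC offsets and 6 at a 2-fold minimum. The 3 ratios kept their sign under their 11 alternatives each. Their p was always the smallest of the design, so nothing is read from it. It was 0.1 (exact permutation) without ARE-/- replicate 1 and WT replicate 3, 0.125 (exact sign permutation) with the replicate block, and 0.0286 (exact permutation) otherwise. Scaling moved the median log2 change of all listed genes to 0.31 with TMM and 0.64 with library totals, against 0.45 with the authors' size factors.

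The replicate numbers did not pair the hearts: deviations of same-numbered libraries correlated at 0.031, 0.033, -0.11 and 0.19, and 1 of 4 ARE-/- libraries correlated best with its own number. With the replicate block all 8 genes kept their call, the necroptosis list had 9 risen genes, and 1863 listed genes rose and 1610 fell, against 2230 and 2062 in the edgeR fit without the block. The cause of the other shifts was not tested.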
